A study of Caenorhabditis elegans with 10 samples.

Results

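The 6 genes for yolk proteins, the receptor that loads yolk into oocytes, and 3 transcription factors that act on the yolk genes were followed through cold exposure: *vit-1*, *vit-2*, *vit-3*, *vit-4*, *vit-5*, *vit-6*, *rme-2*, *pqm-1*, *ceh-60*, and *unc-62*. They were taken by gene name from the table of mRNA levels and make up 10 of 19985 genes, with 29 of 31865 annotated transcripts. The animals were N2, the wild-type strain of *C. elegans*, grown at 20°C until they were 1-day-old adults and collected whole. Animals were taken from 20°C, from 10°C, or after 1, 3, or 5 days in the cold at 4°C (here day 1, day 3, and day 5), with 2 labelled replicates in each of the 5 conditions. The 20°C animals were collected when the others went to 10°C, and no 20°C animals were taken on the later days. Time in the cold and age therefore cannot be told apart. All animals kept at 4°C had first passed through 10°C. The protocol gives that step as 2 hours and the treatment tags as 3 hours. The treatment tag of the day 5 samples says 3 days at 4°C, whereas their titles say 5 days. The deposited levels have 1 column for each condition, so no spread between replicates can be given and no test was made.

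Vitellogenins are large lipid-carrying proteins. In adult hermaphrodites they are made in the intestine, secreted into the body cavity, and taken up by growing oocytes through RME-2, a receptor of the low-density lipoprotein receptor family, to feed the embryo. Transcription of the *vit* genes in the intestine depends on GATA factors and on CEH-60 and UNC-62, a pair of homeodomain proteins of the PBX and MEIS classes. PQM-1, a zinc finger protein, is best known as a factor whose nuclear localization is opposite to that of DAF-16 in the insulin pathway.

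Levels are in FPKM, the reads on a transcript scaled by its length and by the depth of the column. Reads on transcripts summed to between 70741449 at day 5 and 85103831 at day 1, with a read counted for each transcript it overlaps. Of all genes, 10509 reached an FPKM of 1 in at least 1 condition, and all 10 genes described here were among them. A change was called at 2-fold, on the log2 ratio of FPKM + 0.1, a scale that understates the change of low genes. Limits at the 95% level were computed from the read numbers and cover counting error only.

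In the WBcel235 build, 5 of the 6 *vit* genes lie on chromosome X and *vit-6* lies on chromosome IV. *vit-4* (WBGene00006928, X, 3558769 to 3563965) and *vit-3* (WBGene00006927, X, 3567355 to 3572549) are neighbours on the minus strand, 3389 bases apart with 0 protein-coding genes between them. *vit-5* (WBGene00006929, X, 3403471 to 3408603), *vit-2* (WBGene00006926, X, 5101042 to 5106169), and *vit-1* (WBGene00006925, X, 7727889 to 7733168) stand alone on the plus strand, as does *vit-6* (WBGene00006930, IV, 8261157 to 8266459). The 6 mRNAs are between 4870 and 5088 bases long in their most abundant annotated form. The exon plan groups them further. *vit-3*, *vit-4*, and *vit-5* share the same lengths for the 4 inner exons, which are 285, 3038, 229, and 136 bases. *vit-1* and *vit-2* have 5 exons and share an exon of 285 bases and one of 247 bases, whereas no exon of *vit-6* has a length in common with the other five. Both annotated transcripts of *vit-6* held the same reads in each condition. Of the exonic bases of *vit-3* and *vit-4*, 3.47% and 3.04% lie opposite annotated noncoding RNAs.

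The *vit* mRNAs were abundant and fell late in the cold. Together their most abundant transcripts held 4.53% of the reads summed over all transcripts at 20°C and 4.42% at 10°C. The share was 4.41% on day 1, 3.41% on day 3, and 1.52% on day 5. Because that sum counts a read for each transcript it overlaps, these are not shares of sequenced reads. *vit-3* stood at 2027, 1924, 1775, 1244, and 613 FPKM in the same order of conditions. *vit-4* followed with 1956, 1862, 1725, 1234, and 607 FPKM, and *vit-5* with 2014, 1929, 1853, 1377, and 644 FPKM. In these 3 genes each colder or later condition was below the one before it. *vit-1*, the least abundant of the 6, had the same order with 442, 412, 303, 204, and 87.9 FPKM. *vit-2* and *vit-6* behaved differently and were highest at day 1. *vit-2* had 818, 852, 949, 875, and 310 FPKM. *vit-6*, whose product is cleaved into the smaller yolk polypeptides, had 1887, 1947, 2294, 1956, and 805 FPKM. Counting limits were narrow for all 6, the widest in relative terms being 86.9 to 88.8 FPKM for *vit-1* at day 5.

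**Figure D1:**
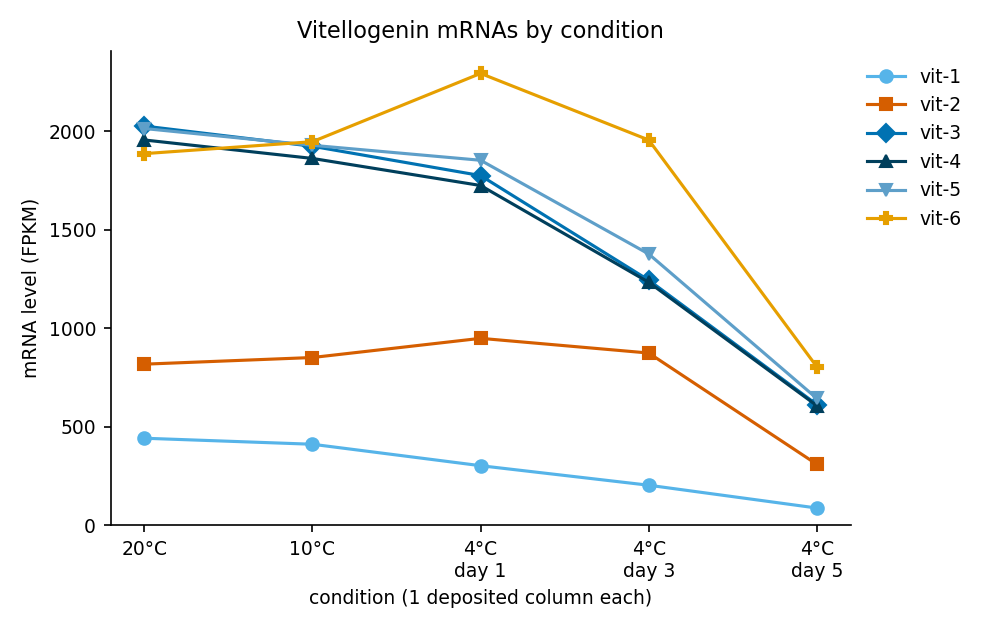
Levels of the 6 vitellogenin mRNAs in FPKM (vertical axis, linear) in the 5 conditions (horizontal axis), 1 point for each deposited column, with 95% counting limits that are mostly smaller than the points. *vit-2* and *vit-6* peak at day 1 with 949 and 2294 FPKM, and all 6 genes are lowest at day 5.

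At 10°C none of the 10 genes passed 2-fold relative to 20°C, in a comparison where 1.27% of all genes were at least 2-fold higher and 0.933% at least 2-fold lower. The *vit* genes had a median log2 ratio of -0.07, beside -0.02 over all genes. Their ratios ran between -0.10 for *vit-1* and 0.06 for *vit-2*.

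On day 1 at 4°C, relative to 10°C, again none of the 6 *vit* genes passed 2-fold, and their median of -0.08 stood beside -0.09 for all genes. Of all genes 5.49% were at least 2-fold higher and 5.42% at least 2-fold lower. The 6 genes had begun to part, however. *vit-6* was higher by 0.24 on the log2 scale (limits 0.23 to 0.24) and *vit-2* by 0.16 (limits 0.15 to 0.16). *vit-1* was lower, with a ratio of -0.44 (limits -0.45 to -0.43), and *vit-3*, *vit-4*, and *vit-5* had ratios between -0.12 and -0.06. Centred on the median of all genes, the ratio of *vit-5* was 0.03, the only one of the 6 to change sign in this comparison.

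Between day 1 and day 3 all 6 *vit* genes had ratios below 0 and none passed 2-fold. The share of all genes past it was 1.57% higher and 4.65% lower. The *vit* median was -0.46, beside -0.03 for all genes. The split seen on day 1 widened: *vit-2* and *vit-6* had ratios of -0.12 and -0.23, and the other four had ratios between -0.57 and -0.43. At day 3 *vit-2* was still at 106.9% and *vit-6* at 103.7% of their 20°C levels. By then *vit-1* was at 46.0%, *vit-3* at 61.4%, *vit-4* at 63.1%, and *vit-5* at 68.4%.

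Between day 3 and day 5 all 6 *vit* genes fell at least 2-fold, while 4.98% of all genes fell that far and 0.152% rose that far. The ratios ran between -1.497 and -1.02 with a median of -1.15, and the median of all genes was 0.02. *vit-2* had the lowest ratio of the 6, -1.497 (limits -1.507 to -1.487), a fall of 2.82-fold. *vit-6* fell 2.43-fold and *vit-1* 2.32-fold. *vit-3* and *vit-4* were just past the threshold, each 2.03-fold lower at day 5, and *vit-5* was 2.14-fold lower. The pair that was near its 20°C level through day 3 thus fell with the other four at day 5. In this comparison 116 of the 10509 genes had a lower ratio than *vit-2*. Of the marker lists described below, the median in the same comparison was -0.71 for the intestine and -0.82 for body wall muscle. It was -0.29 for the epidermis, -0.34 for neurons, -0.07 for oocytes, and 0.19 for the rest of the germ line.

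Set against 20°C, all 6 *vit* genes were at least 2-fold lower at day 5, in a comparison where 16.7% of all genes were that much lower and 5.4% that much higher. Their median ratio was -1.67, beside -0.11 for all genes. *vit-1* had lost the most and kept 19.9% of its 20°C level. *vit-3*, *vit-4*, and *vit-5* kept 30.2%, 31.05%, and 31.97%, *vit-2* kept 37.9%, and *vit-6* kept 42.6%. Summed over the family, FPKM at day 5 was 3066, against 9144 at 20°C.

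**Figure D2:**
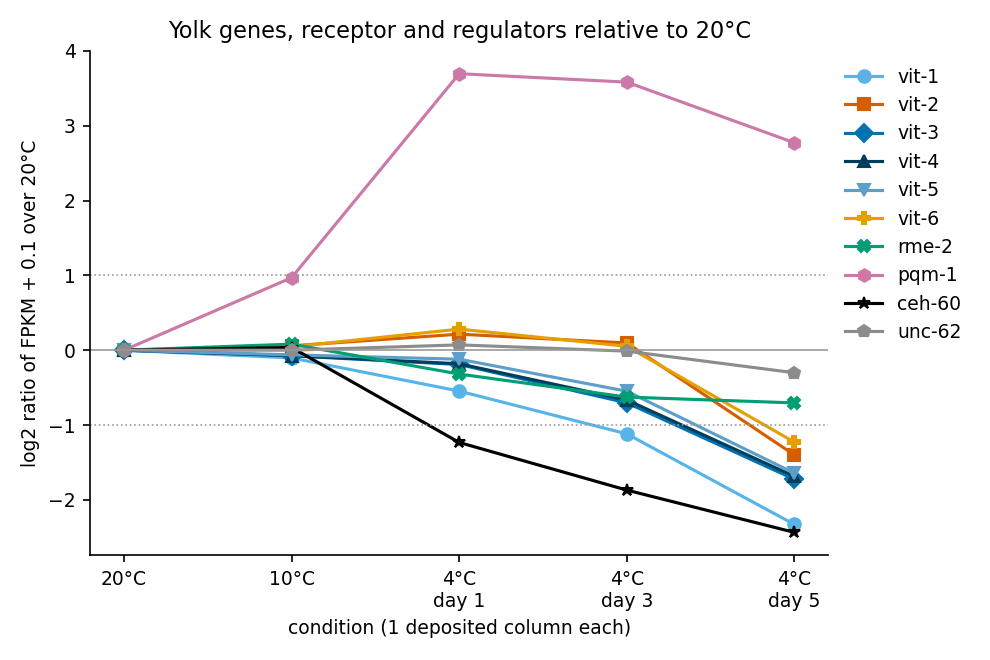
Log2 ratio of FPKM + 0.1 over the 20°C column (vertical axis) for the 10 genes in the 5 conditions (horizontal axis), 1 point for each deposited column, with dotted lines at 2-fold. *pqm-1* is 2-fold or more above 20°C on all 3 days at 4°C, *ceh-60* is 2-fold or more below it on the same days, and the 6 *vit* genes are below the lower line together only at day 5.

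The make-up of the yolk mRNA pool also differed between the conditions. At 20°C *vit-3* was the most abundant, and from 10°C on it was *vit-6*. The order below was *vit-5*, *vit-3*, *vit-4*, *vit-2*, and *vit-1* in all 4 cold conditions. Counting limits of neighbours in this order overlapped once, for *vit-5* and *vit-3* at 10°C. These limits leave out the spread between replicates, and some neighbours were close, such as *vit-6* and *vit-5* at 10°C with 1947 and 1929 FPKM. *vit-2* and *vit-6* together made up 29.6% of the summed *vit* FPKM at 20°C, 31.4% at 10°C, 36.4% on day 1, 41.1% on day 3, and 36.3% on day 5. The pool thus leaned furthest to these 2 genes at day 3. The ratio of *vit-2* to *vit-1* was 1.85 at 20°C, 2.07 at 10°C, 3.14 on day 1, 4.30 on day 3, and 3.53 on day 5. In contrast, the ratio of *vit-3* to its neighbour *vit-4* stayed between 1.01 and 1.04. How reads that match several of these similar genes were assigned is not given in the sources used here, so the levels of *vit-3*, *vit-4*, and *vit-5* may not be separate measurements.

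**Figure D3:**
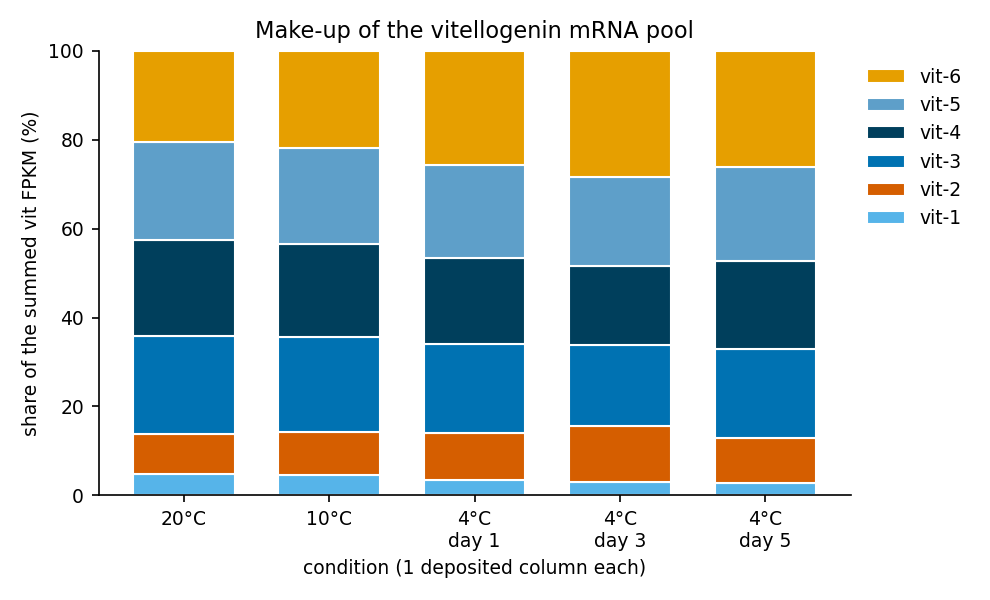
Share of each *vit* gene in the summed FPKM of the 6 genes (vertical axis, %) in the 5 conditions (horizontal axis), as stacked bars with 1 bar for each deposited column. The blocks of *vit-2* and *vit-6* together grow to 41.1% at day 3, against 29.6% at 20°C.

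*rme-2* (WBGene00004374, IV, 5470026 to 5473174, plus strand) encodes the yolk receptor of the oocyte. It had 278 FPKM at 20°C, 294 at 10°C, 223 on day 1, 180 on day 3, and 170 on day 5. Most of the difference from 20°C was in place by day 3. The log2 ratio was -0.40 (limits -0.42 to -0.38) on day 1 relative to 10°C, -0.31 (limits -0.33 to -0.29) on day 3 relative to day 1, and -0.08 (limits -0.10 to -0.06) on day 5 relative to day 3. It passed 2-fold in none of the 5 comparisons, and its level at day 5 was 61.3% of that at 20°C. The second annotated transcript, which is 2867 bases long, against 2541 for the first, stood at 62.1%. Because RNA came from whole animals, fewer cells of a type and less RNA in each cell cannot be told apart here or for any other gene.

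Marker genes of the intestine, where yolk is made, and of the oocyte, where it is stored, were read in the same columns. Of 9 intestinal marker genes with a level, 5 were at least 2-fold lower at day 5 than at 20°C, where 16.7% of all genes were that much lower. These were *elt-2*, *ges-1*, *pept-1*, *vha-6*, and *cpr-6*. The summed FPKM of the 9 was 94.9% of the 20°C value at 10°C, 87.4% on day 1, 72.8% on day 3, and 54.2% on day 5. Of 11 oocyte markers, *rme-2* included, 0 were 2-fold lower or higher in that comparison, and their sum was 103.7%, 84.1%, 77.3%, and 75.4% of that at 20°C in the same order. None of the markers in either list was at 0 in any condition. The summed *vit* level was 97.6%, 97.3%, 75.3%, and 33.5% of the 20°C value, near the intestinal sum at day 3 and below it at day 5. Single intestinal markers did not all follow that sum. The marker sum is mostly *cpr-6* and *mtl-2*, with 222 and 167 of 523 FPKM at 20°C. Some single markers went lower: *pept-1* had 1.24 FPKM at day 5, against 14.2 at 20°C, *ges-1* had 2.17, against 8.49, and *vha-6* had 5.46, against 23.6. Within 2-fold of 20°C at day 5 were *act-5* (log2 ratio -0.37), *elt-7* (-0.43), *ifb-2* (-0.67), and *mtl-2* (-0.68). At day 3 some markers were above 20°C: *act-5* had 87.9 FPKM, against 61.7, and *elt-2* had 3.60, against 2.58. *elt-7* then had 1.86 FPKM, against 1.48, and *ifb-2* had 22.8, against 22.2. The part of any tissue-wide shift in the *vit* and *rme-2* values was not tested.

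*pqm-1* (WBGene00004096, II, 11150391 to 11152595, minus strand) was the only one of the 10 genes to be at least 2-fold higher in any of the 5 comparisons. It had 4.98 FPKM from 430 reads at 20°C, 9.84 FPKM from 895 reads at 10°C, 65.7 FPKM from 6077 reads on day 1, 60.8 FPKM from 5319 reads on day 3, and 34.6 FPKM from 2659 reads on day 5. At 10°C it was just short of 2-fold, with a log2 ratio of 0.97 (limits 0.80 to 1.14), and 135 of the 10509 genes had a higher ratio. On day 1 it rose 6.62-fold relative to 10°C (log2 ratio 2.73, limits 2.63 to 2.83), in a comparison where 5.49% of all genes were at least 2-fold higher. The level was nearly flat from there to day 3, with a ratio of -0.11, and lower by 0.81 on the log2 scale at day 5 (limits -0.88 to -0.74), short of 2-fold. At day 5 it was still 6.83-fold above 20°C. *pqm-1* was thus highest at day 1, when *vit-2* and *vit-6* were highest too, and the 4 other *vit* genes were below their 20°C levels.

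*ceh-60* (WBGene00017690, X, 6522596 to 6530146, minus strand), the PBX-class partner of UNC-62, was scarce and fell early. It had 2.11 FPKM from 223 reads at 20°C, 2.16 FPKM from 241 reads at 10°C, 0.839 FPKM from 95 reads on day 1, 0.504 FPKM from 54 reads on day 3, and 0.308 FPKM from 29 reads on day 5. The fall on day 1 relative to 10°C was 2.41-fold (log2 ratio -1.27, limits -1.61 to -0.93), where 5.42% of all genes were at least 2-fold lower. With a pseudocount of 1 in place of 0.1 that ratio was -0.78. The next steps were smaller, at -0.64 (limits -1.12 to -0.15) on day 3 relative to day 1 and -0.57 (limits -1.22 to 0.09) on day 5 relative to day 3, the second within counting error. By day 5 *ceh-60* was 5.41-fold below 20°C (log2 ratio -2.44, limits -2.99 to -1.88), the lowest ratio of the 10 genes. With a pseudocount of 1 this ratio was -1.25. The ratios of *vit-1*, *vit-2*, *vit-3*, *vit-4*, and *vit-5*, from -2.32 for *vit-1* to -1.40 for *vit-2*, were then lower. *ceh-60* thus passed 2-fold on day 1, whereas the *vit* genes did so as a group between day 3 and day 5. Of its exonic bases 5.41% lie opposite *ets-4*, and whether counting used strand is not stated. *ets-4* itself had 3.50, 6.42, 6.75, 3.76, and 2.20 FPKM in the order of conditions, a course unlike that of *ceh-60* up to day 1.

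*unc-62* (WBGene00006796, V, 4497461 to 4511449, plus strand), the MEIS-class homeobox gene, passed 2-fold in none of the comparisons. Its most abundant annotated transcript had 7.02 FPKM at both 20°C and 10°C, 7.38 on day 1, 6.95 on day 3, and 5.67 on day 5. Of the genes for the partner proteins, at day 5 *ceh-60* kept 18.5% and *unc-62* 81.1% of their 20°C levels on the FPKM + 0.1 scale of the ratios (14.6% and 80.9% on FPKM itself). The log2 ratio of *unc-62* was -0.29 (limits -0.43 to -0.15) on day 5 relative to day 3 and -0.30 (limits -0.44 to -0.16) relative to 20°C, while in the 3 earlier comparisons the limits of all 18 annotated transcripts held 0.

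The 18 transcripts of *unc-62* were not lowered to the same extent at day 5. The 13 that start within 3857 bases of the start of the gene were at 78.6% to 82.1% of their 20°C levels, again on FPKM + 0.1, as are the next values. The 5 that start from 4452 bases on were lower. Ordered by their start these were T28F12.2d.6 at 75.4%, T28F12.2d.7 at 71.5%, T28F12.2d.8 at 68.96%, T28F12.2d.9 at 67.3%, and T28F12.2d.10 at 63.1%. The transcripts overlap and share reads, and the limits of T28F12.2d.10, 52.2% to 76.2%, overlap those of T28F12.2g.1, 73.7% to 91.4%, so the order is a description of 1 gene along its length.

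**Figure D4:**
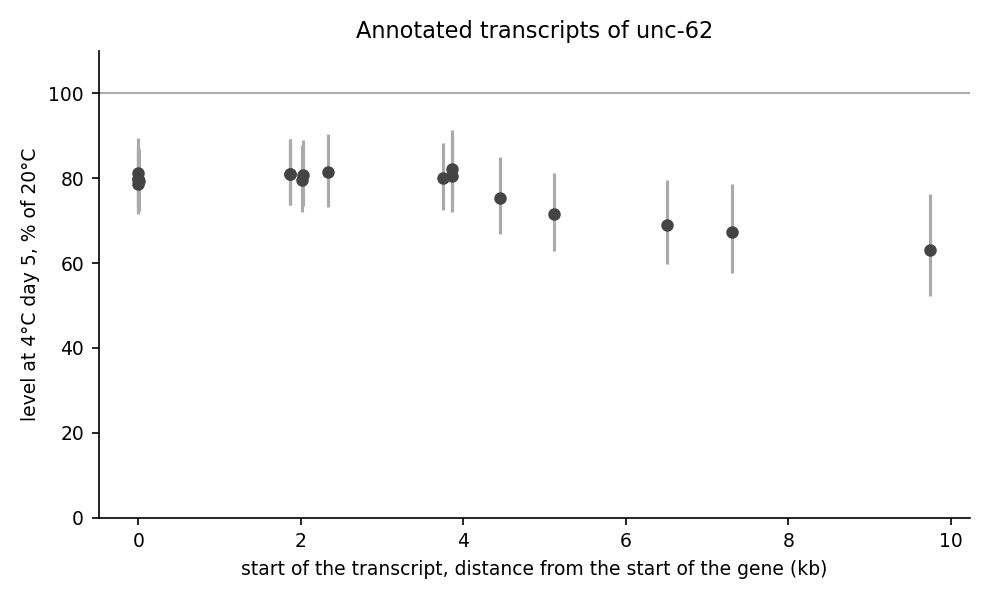
Level at 4°C day 5 as a percentage of the 20°C level (vertical axis, from FPKM + 0.1) for the 18 annotated transcripts of *unc-62*, against the distance of the start of each transcript from the start of the gene in kb (horizontal axis). Bars are 95% counting limits, and the transcript with the most distant start is the lowest, at 63.1%.

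A pair of annotated *unc-62* transcripts, T28F12.2g.1 and T28F12.2h.1, differ in a single inner exon. The first has an exon of 158 bases (V, 4505359 to 4505516) and the second one of 146 bases (V, 4504975 to 4505120). Reads numbered 779, 833, 922, 819, and 567 on the first and 739, 785, 865, 784, and 528 on the second, in the order of conditions. The first had between 35 and 57 reads more, or 4.46% to 7.39%. The transcripts share nearly all their reads, so the use of each exon was not measured separately.

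**Figure D5:**
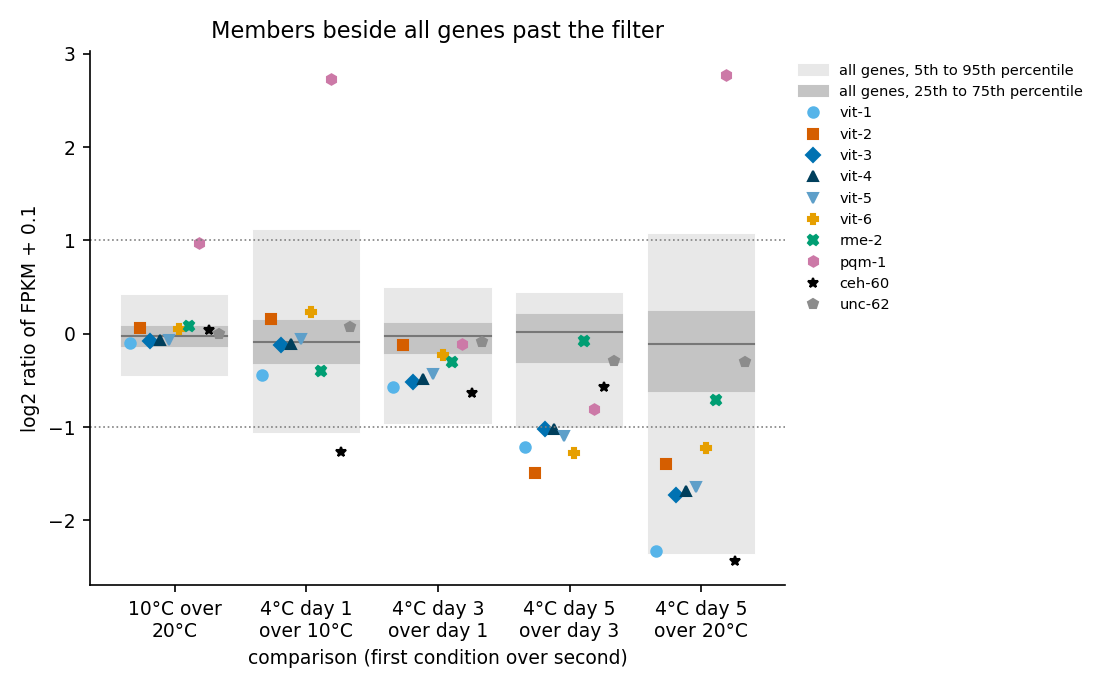
Log2 ratios of FPKM + 0.1 of the 10 genes (symbols) in the 5 comparisons (horizontal axis, first condition over second), beside the ranges of the 10509 genes past the filter (dark boxes from the 25th to the 75th percentile, light boxes from the 5th to the 95th, grey line the median). *pqm-1* lies above the light box in the first 2 comparisons and in the last, and all 6 *vit* genes lie below it at day 5 over day 3.

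The wider machinery of yolk transport was described by a pair of lists. Of 12 genes of endocytosis and yolk processing, among them the clathrin heavy chain gene *chc-1*, the dynamin gene *dyn-1*, and *rme-1*, 0 passed 2-fold in any of the 5 comparisons. The fewest genes passed 2-fold at 10°C relative to 20°C, with 1.27% of all genes higher and 0.933% lower. The most did so at day 5 relative to 20°C, with 5.4% higher and 16.7% lower. In that last comparison the ratios of the 12 genes ran from -0.46 for *dyn-1* to 0.67 for the recycling GTPase gene *rab-11.1*. Their median was -0.11, beside -0.11 for all genes. In the list of 4 lipoprotein receptor and assembly genes, *dsc-4*, which encodes a homologue of the microsomal triglyceride transfer protein, had 15.8 FPKM at 20°C, 20.9 at 10°C, 20.95 on day 1, 9.90 on day 3, and 5.57 on day 5. It fell on day 3 relative to day 1 (log2 ratio -1.07), where the *vit* genes had a median of -0.46, and was lower than at 20°C by day 5 (log2 ratio -1.49). The receptor-related gene *lrp-2* fell over the whole course, with a ratio of -1.37 at day 5 relative to 20°C, where 16.7% of all genes were at least 2-fold lower. *lrp-1* had 7.16, 6.94, 10.4, 14.3, and 8.16 FPKM in the order of conditions, with its highest level at day 3 and a ratio of 0.19 at day 5 relative to 20°C.

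Among 11 genes that regulate *vit* transcription, 10 reached an FPKM of 1 and *mab-3*, which represses *vit* genes in males, did not. At day 5 relative to 20°C 1 of the 10 rose, *pqm-1*, and 5 fell, where 5.4% of all genes rose and 16.7% fell. Besides *ceh-60* these were *elt-2*, *lin-29*, *sgk-1*, and *rict-1*. *elt-2*, the main GATA factor of the intestine, had 2.58 FPKM at 20°C, 4.25 at 10°C, 2.26 on day 1, 3.60 on day 3, and 1.18 on day 5. Its steps up to day 3 stayed within 2-fold, and it then fell by 1.53 on the log2 scale on day 5 relative to day 3. In the step before, on day 3 relative to day 1, its ratio was 0.65, while all 6 *vit* genes had ratios below 0. *lin-29*, a zinc finger gene of developmental timing, fell by 1.421 on day 5 relative to day 3, with 23 reads at day 5, against 83 at day 3. *sgk-1* and *rict-1*, a kinase gene and a TORC2 component gene, fell by 1.08 and 1.01 on the log2 scale at day 5 relative to 20°C. *daf-16* and *daf-2*, of the insulin pathway, had ratios of 0.19 and -0.30. Of the 5 PBX and MEIS class genes, *ceh-40* joined *ceh-60* past 2-fold at day 5 relative to 20°C with a ratio of -1.05, *ceh-20* and *unc-62* had ratios of -0.42 and -0.30, and *psa-3* did not reach an FPKM of 1.

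The genes whose course over the 5 conditions was most like that of each yolk gene were found by the root mean square difference of log2 levels relative to each gene's own mean. For the mean course of the 6 *vit* genes these were *T23E7.2*, *clik-3*, *itr-1*, *pitp-1*, and *irg-4*, with differences between 0.06 and 0.09, and 192 genes lay within 0.25. *itr-1*, the IP3 receptor gene, had 7.51, 7.42, 7.16, 4.84, and 2.20 FPKM in the order of conditions. For *ceh-60* the closest were *wrt-3*, *B0303.11*, *acds-10*, *F55H12.2*, and *Y34F4.1*, and 144 genes lay within 0.25. *wrt-3*, a hedgehog-related gene, had 2.21, 2.28, 0.862, 0.497, and 0.314 FPKM, almost the levels of *ceh-60*. With 54 reads on *ceh-60* on day 3 and 29 on day 5, counting error limits how well its closest genes can be ranked. The course of *pqm-1* had the fewest genes near it, with 7 within 0.25. The closest were *F41C3.2*, *Y58A7A.5*, *swt-6*, *M01G12.9*, and *F10E9.12*. The courses of *rme-2* and *unc-62* had 2639 and 5011 genes within 0.25. A fixed margin tends to hold fewer genes for a course with large changes, so these counts do not measure how rare a course is. The closest to *rme-2* were *sqrd-1*, *vha-7*, *rrf-3*, *T24D1.7*, and *sqv-5*, and the closest to *unc-62* were *mig-15*, *Y61A9LA.1*, *cyk-1*, *vgln-1*, and *unc-6*.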

How the data were processed

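Total RNA of whole animals was measured in 5 conditions with 2 labelled replicates each. For the authors' FPKM, reads went through the ORFik pipeline, with fastp 0.23.4 for adapters, STAR 2.7.11b for mapping to WBcel235, and DESeq2 1.42.1 for expression, and FPKM was deposited per transcript. Use of strand, the annotation release, and how replicates were pooled are not given in the sources used here. The table has 1 more column of values, which matched no sample and was left out.

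FPKM times exon length, from Ensembl release 115 of WBcel235, gave whole reads for 100% of values (tolerance 0.001 reads). Wilson limits and limits of log2 ratios (95%) used these reads. A gene took its transcript with the highest mean FPKM. The filter was an FPKM of 1 in at least 1 condition, the pseudocount 0.1, and the threshold 2-fold. With 1 column for each condition neither a count test nor any other test was made. The 5 comparisons share columns. All 10 members were named, and other lists by counts, with values mainly for genes past 2-fold. The members and lists were chosen with earlier results of these data known. The procedure was tested on simulated data. Computations used Python 3.11.15, numpy 2.4.6, pandas 2.3.3, and matplotlib 3.10.9.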

Additional observations from a re-analysis of the deposited data

How the results depend on the processing

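No paired analysis was possible because the deposited table has 1 column for each condition and no replicate number, and for the same reason no replicate could be left out. Of 445 log2 ratios of single genes under 9 alternative settings, 441 kept their sign. A change of filter cannot alter the ratio of a gene. Nor can the choice of transcript where a gene has 1 annotated transcript. Part of these counts was therefore fixed in advance. Of 142 ratios that were past 2-fold as reported, 141 stayed past it, the exception being *ceh-60* on day 1 relative to 10°C. In that comparison the number of genes at least 2-fold lower, 1 as reported, was 0 with a pseudocount of 1, 0 with a filter at an FPKM of 5, which removes *ceh-60*, and 0 at 4-fold. At 1.5-fold, 1 gene was higher at 10°C relative to 20°C and 1 was lower on day 3 relative to day 1. At 4-fold, 0 genes were lower on day 5 relative to day 3 and 2 were lower on day 5 relative to 20°C. The median ratio of the *vit* genes, centred on the median of all genes, was -0.043 (10°C over 20°C), 0.000888 (day 1 over 10°C), -0.43 (day 3 over day 1), -1.18 (day 5 over day 3), and -1.56 (day 5 over 20°C). With column totals that leave out the *vit* reads, it was -0.47 (day 3 over day 1), -1.19 (day 5 over day 3), and -1.72 (day 5 over 20°C). Centred on genes of the same decile of mean expression, an alternative chosen after seeing the data, it was -0.00063 (10°C over 20°C), -0.16, -0.49, -1.35, and -1.92 in the same order. Depth limits *ceh-60* the most, with 29 reads at day 5.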

Other observations

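Other tissues gave different courses over the same 5 conditions. At day 5 relative to 20°C, 16.7% of all genes were at least 2-fold lower and 5.4% at least 2-fold higher. The summed FPKM of 6 germ line genes other than oocyte markers was 101.5% of the 20°C value at 10°C, 90.1% on day 1, 93.1% on day 3, and 101.02% on day 5, and 0 of the 6 passed 2-fold at day 5 relative to 20°C. That of 6 body wall muscle genes was 94.8%, 104.4%, 87.7%, and 65.9%, with 1 gene at least 2-fold lower in that comparison. That of 6 neuronal genes was 100.2%, 120.8%, 134.3%, and 137.9%, with 0 genes past 2-fold at day 5 relative to 20°C. This sum is mostly *snb-1*, with 53.6 of 70.6 FPKM at 20°C, and in that comparison 3 of the 6 genes had ratios above 0 and 3 below. The summed FPKM of 6 epidermal genes, 4 of which reached an FPKM of 1, was 92.8%, 109.2%, 67.3%, and 66.5%. In the same comparison 1 gene was at least 2-fold lower. The epidermal sum is mostly *col-19*, with 284 of 301 FPKM at 20°C. On day 1 relative to 10°C, 3 of the 4 genes had ratios below 0 and 1 above. Of 7 sperm genes 1 reached an FPKM of 1.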
